A study of Mus musculus with 21 samples.

Results

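Aminoacyl-tRNA synthetases are the enzymes that join each amino acid to the tRNA that reads its codons. The genes were taken by symbol: 1 letter for the amino acid followed by ars, with an ending of 1, 2, a or b where there is one, and the glutamyl-prolyl enzyme Eprs1. The rule found 37 genes in each of 4 expression tables, which list 11670, 11868, 11355 and 13085 genes. Of the 37, 18 encode cytosolic enzymes, 17 encode mitochondrial enzymes, and Gars1 and Kars1 encode both forms. Hars1, Mars1 and Wars1 are under the older symbols Hars, Mars and Wars in some tables.

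A cell translates in the cytosol and in its mitochondria, and mostly with separate enzymes for the same amino acid, so a cytosolic synthetase such as Wars1 has a mitochondrial counterpart such as Wars2. The enzymes fall into classes I and II by the fold of the catalytic domain, and several cytosolic ones are held with the scaffold proteins Aimp1, Aimp2 and Eef1e1 in the multi-synthetase complex. When an amino acid runs short, uncharged tRNA activates the kinase GCN2, which raises translation of the transcription factor ATF4, and many cytosolic synthetase genes are known targets of ATF4.

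The values are log2 CPM, the log2 of a gene's reads scaled to a common library size, from RNA-seq of Ba/F3 cells, a mouse interleukin-3-dependent pro-B line, made to express the activated kinase JAK2-V617F. Ruxolitinib is a type I inhibitor that binds the active form of JAK2, and CHZ868 is a type II inhibitor, which binds the inactive form. The study was on how ruxolitinib leads to hyperphosphorylated JAK2. This RNA-seq was a part of it, on gene expression with each inhibitor and after its removal. There were 21 libraries in 7 groups of 3, and all groups carried JAK2-V617F.

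For 6 h, CHZ868-treated and ruxolitinib-treated cells had the inhibitor at 1 μM and DMSO-treated cells had the solvent. Ruxo-wash and CHZ868-wash cells had 1 h of the inhibitor at 1 μM, were washed with PBS and spent 6 h without it. Each washout experiment had its own DMSO-wash group, exposed to DMSO for 1 h. The labels do not say whether the 3 libraries of a group came from separate cultures, so each p-value measures the spread between these libraries. They also do not say whether the line is a single clone.

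Reads on the listed genes were 7880220 to 10673060 in the CHZ868-treated libraries and 8308687 to 9725106 in the DMSO-treated libraries. They were 9342555 to 10266437 in the ruxolitinib-treated libraries, 8151737 to 9094822 in the CHZ868-wash libraries and 8741411 to 9877533 in their DMSO-wash libraries. The depth of the ruxo-wash experiment is unknown, because its values do not go back to whole reads. Ruxolitinib-treated replicate 2 and DMSO-wash replicate 3 of the CHZ868 experiment stood apart from their groups. The variance between them and the other libraries of their group was 23.6 to 38.6 times the sampling noise, against 2.17 to 14.4 for the other pairs.

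The labelled cell type was checked against 12 marker genes, of which 6 were listed. Csf2rb, a subunit of the interleukin-3 receptor, was the most abundant, at a mean log2 CPM of 10.70 in DMSO-treated cells. Il3ra, Csf2rb2, Ptprc, Cd79a and Cd79b were listed too, while Pax5, Ebf1, Vpreb1, Igll1 and Rag1, which mark the B lineage, were among those not listed in any table. Of 15 markers of other cells, Csf1r alone was listed in 3 of the tables, at a summed 9.19 CPM in DMSO-treated and 4.06 CPM in CHZ868-treated cells, against 3380 and 2720 CPM for the 6 own markers. The ruxo-wash table listed 4 of the 15, with a summed 13.7 CPM in DMSO-wash and 10.8 CPM in ruxo-wash cells, against 409 and 347 CPM for the own markers.

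Levels were compared between genes per kilobase of the longest annotated transcript, in DMSO-treated cells. Wars1, the tryptophanyl enzyme, was at 185 CPM per kb and Nars1, the asparaginyl enzyme, at 183 CPM per kb, with overlapping libraries. Gars1 for glycine followed at 154 CPM per kb and Vars1 for valine at 121 CPM per kb. Each of the 20 enzymes that serve the cytosol was above each of the 17 mitochondrial ones on this scale. The lowest of the 20, the phenylalanyl subunit Farsa, had a mean of 30.1 CPM per kb, and the highest of the 17, Tars2 for mitochondrial threonine, had 27.1 CPM per kb. The median was 81.7 CPM per kb for the 20 and 8.82 CPM per kb for the 17. Mars2 and Pars2, for mitochondrial methionine and proline, were lowest at 3.37 and 3.34 CPM per kb and did not differ beyond their spread. The Mars2 transcript used is 11294 bases long, so its value depends on that annotation.

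The first question was what JAK2 inhibition by CHZ868 did to these genes within 6 h. The test was limma-trend on all 11670 genes, and a gene passed at a Benjamini-Hochberg adjusted p under 0.05. Of the 37 synthetase genes, 21 fell, 2 rose and 14 did not pass. Among all genes 26.4% passed as lower and 26.8% as higher. The median log2 difference was -0.45 over the 37 genes and -0.01 over all genes. In bulk RNA, fewer cells of a kind and less RNA in each cell cannot be told apart. Of the 20 enzymes that serve the cytosol, 14 fell and 2 rose, with a median of -0.67. Of the 17 mitochondrial enzymes, 7 fell and 0 rose, with a median of -0.24. At an unadjusted p under 0.05, 22 of the 37 were lower and 3 were higher, and 58.4% of all genes were at that level. RNA from the mitochondrial genome made up 4.93% to 6.37% of the CHZ868-treated libraries and 1.36% to 1.42% of the DMSO-treated ones, and its part in these counts was not tested.

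The largest falls were in 4 cytosolic enzymes outside the multi-synthetase complex. Wars1 had a log2 CPM of 9.06, 9.04 and 9.06 in the DMSO-treated libraries and 7.44, 7.43 and 7.57 in the CHZ868-treated libraries. All 3 treated libraries lay far below the controls, and the libraries within each group were close together. Its level was 33.6% of that in DMSO-treated cells, a log2 difference of -1.57 with a standard error (SE) of 0.0578 (limma-trend, Benjamini-Hochberg adjusted p = 1.62e-11).

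Cars1, which charges tRNA with cysteine, had 6.92, 6.97 and 6.98 log2 CPM in the DMSO-treated and 5.62, 5.61 and 5.49 in the CHZ868-treated libraries. The groups were well apart. It was at 38.5% of the control level, with a log2 difference of -1.38 (SE 0.0755, limma-trend with Benjamini-Hochberg adjusted p = 1.43e-09).

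Yars1, the tyrosyl enzyme, had 7.42, 7.52 and 7.50 log2 CPM in DMSO-treated and 6.14, 6.02 and 6.28 in CHZ868-treated cells. Again every treated library was below every control, although the treated ones were more spread. The log2 difference of Yars1 was -1.33 (SE 0.0765, limma-trend with Benjamini-Hochberg adjusted p = 2.17e-09). Aars1, the alanyl enzyme, had 8.93, 8.95 and 8.98 log2 CPM in DMSO-treated and 7.74, 7.76 and 7.89 in CHZ868-treated cells. Its groups did not overlap. Aars1 was at 44.9% of control (log2 difference -1.16, SE 0.0584, limma-trend with Benjamini-Hochberg adjusted p = 5.71e-10).

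Another 6 cytosolic enzymes also fell. Lars1 for leucine was at 47.6% of its control level, Vars1 for valine at 50.5% and Sars1 for serine at 59.0%. Iars1, the isoleucyl enzyme, had a smaller difference, with 78.2% of control. Nars1 and Tars1, for asparagine and threonine, were at 72.9% and 67.0% of control. In each of the 6 the treated libraries lay below the controls.

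Gars1 and Kars1 each give a cytosolic and a mitochondrial enzyme from 1 gene. Gars1 had 8.48, 8.49 and 8.58 log2 CPM in DMSO-treated and 7.61, 7.55 and 7.56 in CHZ868-treated cells. The treated libraries were tightly grouped and all lower. Its log2 difference was -0.94 (SE 0.0571, limma-trend with Benjamini-Hochberg adjusted p = 4.03e-09). Kars1, the lysyl enzyme, had 8.24, 8.10 and 8.09 log2 CPM in DMSO-treated and 7.75, 7.81 and 8.11 in CHZ868-treated cells. Here the groups overlapped, since CHZ868-treated replicate 3 lay among the controls. The Kars1 log2 difference was -0.26 (SE 0.0830, limma-trend with Benjamini-Hochberg adjusted p = 0.0161). It did not pass without DMSO-treated replicate 1, without CHZ868-treated replicate 1 or without CHZ868-treated replicate 2, nor without the mean-variance trend, and its adjusted p ranged from 2.97e-05 to 0.106 over the alternatives.

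The multi-synthetase complex holds 8 of the enzymes, of which 5 fell and 2 rose, against 26.4% and 26.8% of all genes. Mars1, the methionyl enzyme, was at 47.1% of control and Eprs1, which carries the glutamyl and prolyl activities in a single chain, at 57.8%. Lars1, Iars1 and Kars1 were the others that fell. Qars1, for glutamine, was among the 2 that rose, and Rars1, for arginine, did not pass (log2 difference 0.02, 95% interval -0.12 to 0.17). The median over the 8 was -0.31, and over the 12 enzymes outside the complex, of which 9 fell and 0 rose, it was -0.85.

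Qars1 had 7.24, 7.29 and 7.31 log2 CPM in DMSO-treated and 7.51, 7.38 and 7.46 in CHZ868-treated cells. Its groups were apart by a small margin. The log2 difference of Qars1 was 0.17 (SE 0.0623, limma-trend with Benjamini-Hochberg adjusted p = 0.0314). Qars1 did not pass without the mean-variance trend, after quantile normalization, without any 1 of the 3 DMSO-treated replicates or without CHZ868-treated replicate 1, with an adjusted p from 0.0166 to 0.495 over the alternatives. In each of these 4 fits with a library left out, 1 gene rose in place of 2.

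Farsa and Farsb, the subunits of the cytosolic phenylalanyl enzyme, did not pass, and neither did the histidyl enzyme Hars1. Their log2 differences were 0.11, 0.03 and 0.10 (95% interval of Farsb -0.13 to 0.20). By class, 7 of the 9 cytosolic class I genes fell, with a median of -1.07, and 6 of the 10 class II genes fell, with a median of -0.36, against 26.4% of all genes. The difference between the classes was not tested. In each class 1 gene rose, Qars1 in class I, against 26.8% of all genes, and Eprs1 belongs to both classes and was left out of this count.

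Among the mitochondrial enzymes Mars2, for methionine, had the largest fall. It had 5.25, 5.20 and 5.32 log2 CPM in DMSO-treated and 4.15, 4.37 and 4.22 in CHZ868-treated cells. The treated libraries were all lower by a wide margin. The log2 difference was -1.01 (SE 0.119, limma-trend with Benjamini-Hochberg adjusted p = 4.95e-06). Tars2 and Vars2, for threonine and valine, were at 51.5% and 56.9% of control, and Yars2 for tyrosine was at 61.8%. Nars2 was at 64.9%, Cars2 at 65.6% and Aars2, for alanine, at 73.3%. Aars2 did not pass without DMSO-treated replicate 2, with an adjusted p from 0.00319 to 0.0558 over the alternatives.

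The other 10 mitochondrial enzymes did not pass. Fars2, the phenylalanyl enzyme, had 4.29, 4.28 and 4.31 log2 CPM in DMSO-treated and 4.68, 4.44 and 4.73 in CHZ868-treated cells. All treated libraries were above the controls. The log2 difference was 0.32 (SE 0.133, limma-trend with Benjamini-Hochberg adjusted p = 0.0520). It passed without the mean-variance trend, with median centring, with quantile normalization, with the filter at 3 log2 CPM, by voom and without CHZ868-treated replicate 2, with an adjusted p from 0.0143 to 0.129. Lars2, for leucine, had 7.13, 6.04 and 7.06 log2 CPM in CHZ868-treated cells, on both sides of 6.54, 6.60 and 6.56 in DMSO-treated cells. Replicate 2 alone was below the controls, and without it Lars2 passed as higher, at a log2 difference of 0.53 with an adjusted p of 0.000104 by limma-trend with Benjamini-Hochberg adjustment, in a range of 0.000104 to 0.947. Iars2, for isoleucine, also passed as higher without that library, and the count of genes that rose was then 5. Hars2 passed as lower by voom and without CHZ868-treated replicate 3. Ears2, Pars2, Rars2, Sars2 and Wars2 had log2 differences from -0.24 to 0.12.

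**Figure D1:**
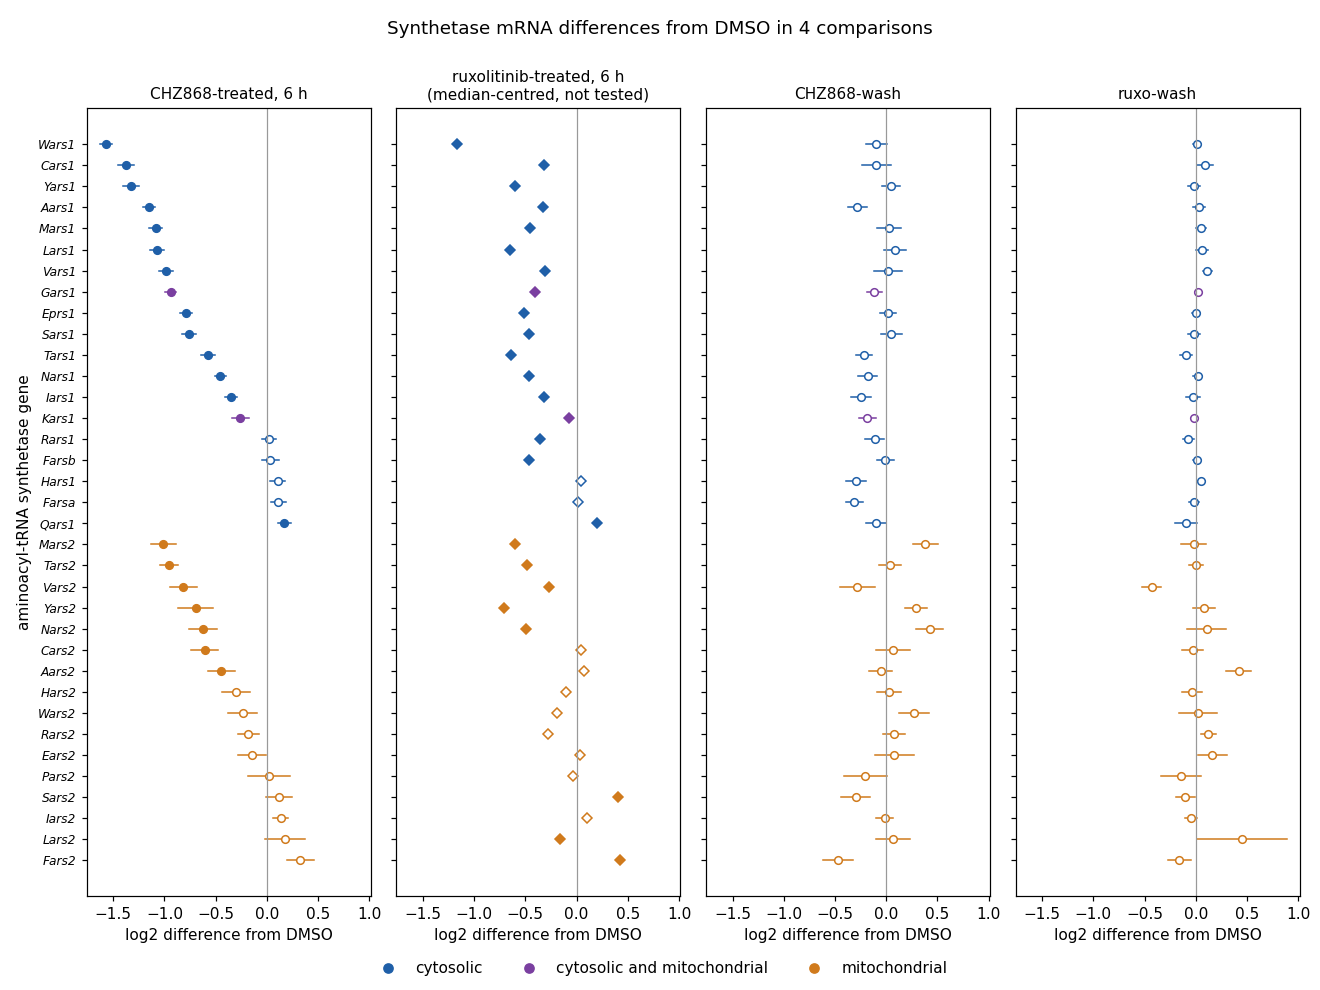
The panels give the log2 difference from the group's own DMSO libraries (horizontal axis, log2 units) for 35 of the 37 synthetase genes in CHZ868-treated, ruxolitinib-treated, CHZ868-wash and ruxo-wash cells, in blue for cytosolic, purple for shared and orange for mitochondrial enzymes; lines are standard errors, and filled symbols mark an adjusted p under 0.05 or, for the untested ruxolitinib panel of median-centred values, groups of 3 that do not overlap. Most filled symbols of the first 2 panels lie left of 0, with Wars1 farthest at -1.57 and -1.16, while the washout panels have 0 filled symbols.

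**Figure D2:**
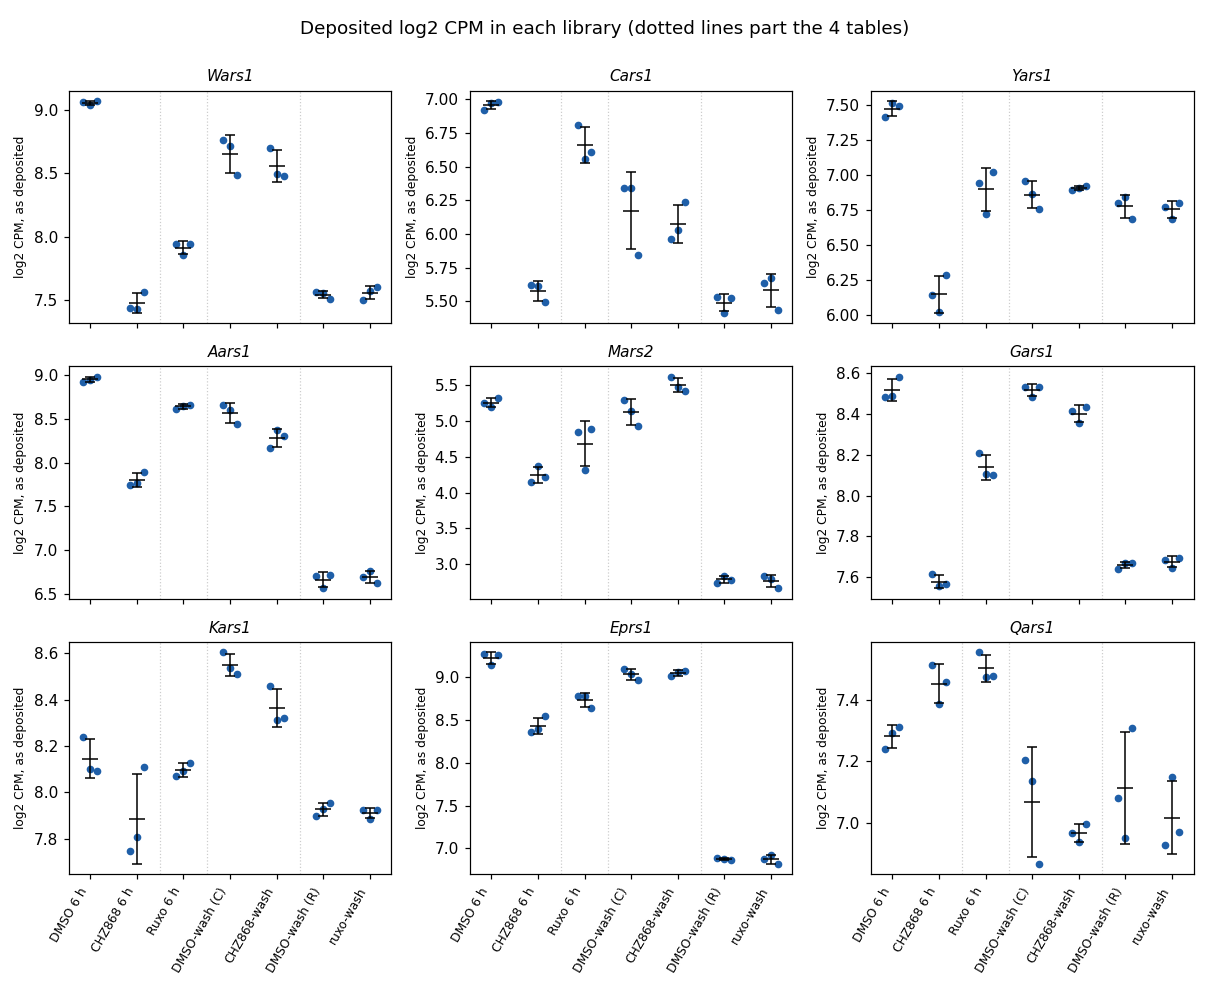
Each point is the log2 CPM of 1 library, with the mean and SD of its group of 3, for 9 synthetase genes in the 7 groups; dotted lines part the separately normalized tables, across which levels are not compared. For Wars1 the CHZ868-treated libraries lie between 7.43 and 7.57 and the DMSO-treated ones between 9.04 and 9.06, whereas the Kars1 groups overlap.

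The same dose and time with ruxolitinib is a description without a test, because the ruxolitinib-treated libraries are in a table normalized apart from their DMSO-treated controls. From each library its median over the 11624 genes in both tables was subtracted, which is called centring here. A gene was counted when the 3 ruxolitinib-treated libraries lay all below or all above the 3 DMSO-treated ones. For 3 against 3 libraries the smallest p of an exact two-sided permutation test is 0.1. By this count 23 of the 37 synthetase genes were lower, 3 were higher and 11 overlapped. Among all shared genes 20.1% were lower and 24.6% higher. The median log2 difference was -0.31 over the 37 genes and 0.04 over all genes. Both inhibitor comparisons use the same 3 DMSO-treated libraries, so their values are set side by side only, and the difference between the inhibitors at 6 h was not tested.

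Of the 20 enzymes that serve the cytosol, 17 were lower and 1 was higher in ruxolitinib-treated cells, and of the 17 mitochondrial ones 6 were lower and 2 higher, against 20.1% and 24.6% of all genes. Wars1 had 3.81, 3.79 and 3.82 centred log2 units in the DMSO-treated libraries and 2.67, 2.60 and 2.65 in the ruxolitinib-treated libraries. The groups were far apart. Its log2 difference was -1.16, which is 44.6% of control, beside 33.6% with CHZ868. The CHZ868 percentages given here are from the values without centring. Lars1 for leucine had 3.45, 3.39 and 3.44 centred log2 units in DMSO-treated and 2.91, 2.63 and 2.79 in ruxolitinib-treated cells. Replicate 2 was the lowest of the treated libraries, and all 3 were below the controls. Tars1 and Yars1, for threonine and tyrosine, were at 64.4% and 65.9% of control with ruxolitinib, beside 67.0% and 39.8% with CHZ868. Cars1 and Aars1 were at 80.1% and 79.5%, beside 38.5% and 44.9% with CHZ868.

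The mitochondrial enzymes Yars2 and Mars2, for tyrosine and methionine, were at 61.1% and 66.1% of control in ruxolitinib-treated cells. In both, replicate 2 was the lowest library, at -1.83 centred log2 units for Yars2 beside -1.09 and -1.08, and at -0.93 for Mars2 beside -0.43 and -0.41. Without that library the log2 difference was -0.46 for Yars2 in place of -0.71 and -0.43 for Mars2 in place of -0.60. RNA from the mitochondrial genome was 3.53% of ruxolitinib-treated replicate 2 and 1.70% and 1.72% of replicates 1 and 3, and its part in these values was not tested. Without replicate 2, Aars2 was also higher without overlap and Rars2 was lower, and the count of higher genes was 5. Without replicate 3 it was 5 too, with Hars1 and Iars2.

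Qars1, Fars2 and Sars2 were the 3 genes that lay above the controls in every ruxolitinib-treated library. Their log2 differences were 0.20 for Qars1, 0.43 for Fars2 and 0.40 for Sars2, the mitochondrial seryl enzyme. Qars1 lost its separation after quantile normalization. Farsb and Rars1, which did not pass with CHZ868, were at 72.6% and 78.2% of control with ruxolitinib, without overlap. Kars1 was at 95.1%, and its separation was lost with no centring or with centring on the mean.

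The next question was whether the genes differed after the inhibitor had been removed. In ruxo-wash against DMSO-wash cells, 0 of the 37 synthetase genes passed limma-trend in either direction, where 0.0229% of the 13085 genes passed as lower and 0.0% as higher. That is 3 genes, and 0 or 1 with any 1 library left out, and voom could not be run without whole reads. At an unadjusted p under 0.05 there were 2 synthetase genes, Aars2 and Vars2, and 7.03% of all genes. The smallest adjusted p among the 37 was 0.409 (limma-trend, Benjamini-Hochberg), and the median log2 difference was 0.01, with 0.00 over all genes. Without overlap between groups, 1 gene was lower and 3 were higher, against 6.59% and 6.3% of all genes.

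Lars2 and Vars2 had the largest differences in that experiment. Lars2 had 8.63, 7.42 and 6.90 log2 CPM in ruxo-wash and 6.98, 7.57 and 7.05 in DMSO-wash cells. Ruxo-wash replicate 1 stood high above all others, and the remaining libraries overlapped. The difference was 0.45 (95% interval -0.61 to 1.51, limma-trend with Benjamini-Hochberg adjusted p = 0.888), and without that library it was -0.04. Vars2, the mitochondrial valyl enzyme, had 4.58, 4.48 and 4.66 log2 CPM in ruxo-wash and 4.88, 4.97 and 5.17 in DMSO-wash cells. Its groups did not overlap. The difference was -0.43 (95% interval -0.66 to -0.20, limma-trend with Benjamini-Hochberg adjusted p = 0.409). For Wars1, which charges tryptophan, the 95% interval was -0.08 to 0.11.

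In CHZ868-wash against DMSO-wash cells, 0 of the 37 genes passed in either direction by limma-trend, and 0 by voom on the recovered reads. Of all 11355 genes 2.07% passed as lower and 1.96% as higher. At an unadjusted p under 0.05, 7 synthetase genes were lower and 3 were higher, which is 10 of 37, and 24.4% of all genes were at that level. The smallest adjusted p was 0.0570, for Farsa, the phenylalanyl subunit (limma-trend, Benjamini-Hochberg; log2 difference -0.31). Without overlap, 9 genes were lower and 3 higher, against 16.1% and 14.9% of all genes, and the median difference was -0.01, with 0.01 over all genes.

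Fars2 and Nars2 had the largest differences after CHZ868 was removed. Fars2, the mitochondrial phenylalanyl enzyme, had 3.57, 3.75 and 3.70 log2 CPM in CHZ868-wash and 4.08, 4.08 and 4.29 in DMSO-wash cells. The CHZ868-wash libraries were all lower. The difference was -0.47 (95% interval -0.80 to -0.15, limma-trend with Benjamini-Hochberg adjusted p = 0.0852). Nars2, for mitochondrial asparagine, had 4.57, 4.79 and 4.78 log2 CPM in CHZ868-wash and 4.15, 4.39 and 4.33 in DMSO-wash cells. Here the CHZ868-wash libraries were all higher. The difference was 0.42 (95% interval 0.13 to 0.71, limma-trend with Benjamini-Hochberg adjusted p = 0.0894).

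The counts depended on single libraries. Without DMSO-wash replicate 3, in which RNA from the mitochondrial genome was 5.33% beside 2.84% and 2.27% in replicates 1 and 2, Aars1, Farsa, Hars1 and Vars2 passed as lower and Nars2 as higher. Without DMSO-wash replicate 2, Farsa and Iars1 passed as lower. Among all genes, 235 passed as lower and 222 as higher. Leaving out DMSO-wash replicate 2 gave 704 and 594, leaving out DMSO-wash replicate 3 gave 667 and 759, and leaving out any of the other 4 libraries gave 0 or 1. The part of mitochondrial RNA in these values was not tested.

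A limma-trend fit of the difference of differences, over 11175 shared genes, compared the effect of CHZ868 at 6 h with its effect after washout. Presence of the inhibitor, washing, exposure time and experiment differ between these effects. For 18 synthetase genes the 6 h effect was lower and for 3, Farsa, Hars1 and Fars2, it was higher. Of all genes 23.8% were lower and 23.2% higher. The median was -0.36 over the 37 genes and -0.02 over all genes. Wars1 differed by -1.48 (95% interval -1.73 to -1.23, Benjamini-Hochberg adjusted p = 7.28e-08), and Mars2 by -1.39 (95% interval -1.73 to -1.04). Fars2 was above its controls with CHZ868 present and below them after washout. For Kars1 the difference was -0.07, with a 95% interval of -0.34 to 0.19, and it did not pass.

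The washout effects of ruxolitinib and CHZ868, at matched dose and times, were compared in the same way over 10081 genes, and 0 of the 37 synthetase genes differed by limma-trend. Of all genes 0.923% passed as lower and 0.972% as higher, which is 93 and 98 genes, and 1 to 297 and 4 to 331 with 1 library left out, the highest without replicate 2 of the DMSO-wash cells that belong with CHZ868. At an unadjusted p under 0.05, 1 synthetase gene was lower and 4 were higher with ruxolitinib, and 18.9% of all genes were at that level. The smallest adjusted p was 0.0950 (limma-trend, Benjamini-Hochberg), for Hars1. For Wars1 the difference was 0.11 (95% interval -0.13 to 0.35), and for Hars1 0.34 (95% interval 0.12 to 0.57). Leaving out replicate 3 of the DMSO-wash cells that belong with CHZ868, Aars1 passed as higher, at 0.38 with an adjusted p of 0.0439 by limma-trend with Benjamini-Hochberg adjustment. Each inhibitor had its own experiment, so experiment and inhibitor cannot be told apart.

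The proteins that work with the synthetases were followed in lists, and each count below stands against 26.4% of all genes lower and 26.8% higher with CHZ868, and 20.1% and 24.6% without overlap with ruxolitinib. Of 13 listed synthetase partners, 3 fell and 5 rose with CHZ868, with a median of -0.07. Aimp1, a scaffold of the multi-synthetase complex, had 6.39, 6.38 and 6.42 log2 CPM in DMSO-treated and 7.28, 7.04 and 7.08 in CHZ868-treated cells. All treated libraries were higher. The difference was 0.73 (SE 0.0749, limma-trend with Benjamini-Hochberg adjusted p = 1.15e-06). Aimp2, another scaffold, rose by 0.36 on the log2 scale, and Eef1e1, the smallest scaffold, had a difference of -0.54. Dtd1, which removes D-amino acids from tRNA, rose by 0.60, and Sepsecs, the last enzyme of selenocysteinyl-tRNA synthesis, fell by 0.43. With ruxolitinib, 2 of the 13 partners were lower without overlap and 1 was higher, and Eef1e1 was at -1.08.

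Of 27 genes for tRNA processing and export, 9 fell and 4 rose with CHZ868, against 26.4% and 26.8% of all genes, with a median of -0.17. Xpot, the exportin that carries tRNA out of the nucleus, had 8.59, 8.59 and 8.54 log2 CPM in DMSO-treated and 7.25, 7.33 and 7.18 in CHZ868-treated cells. The groups were far apart. Xpot fell by 1.32 and Trpt1, the tRNA 2′-phosphotransferase, by 1.59. Ssb, the La protein that binds new RNA polymerase III transcripts, rose by 0.71, and Rpp30, a subunit of RNase P, by 0.53. With ruxolitinib 12 of the 27 were lower and 0 higher without overlap, against 20.1% and 24.6% of all genes.

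RNA polymerase III transcribes tRNA genes. Of its 23 genes 6 fell and 4 rose with CHZ868, against 26.4% and 26.8% of all genes, with a median of -0.04. Among them were the subunits Polr3e (-0.73) and Polr3d (-0.72) and the factor subunits Gtf3c6 (0.85) and Gtf3c5 (0.43). Of 7 factors that deliver charged tRNA to the ribosome, 4 fell and 3 rose, with a median of -0.31. Tsfm, the mitochondrial exchange factor, differed by -1.10 and Eef1g by -0.38, whereas Eef1d and Eefsec rose by 0.33 and 0.28. With ruxolitinib 5 of the 23 polymerase genes were lower and 6 higher without overlap, and of the 7 delivery factors 2 were lower and 2 higher.

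Of 24 genes of the GCN2 and ATF4 response, 22 fell and 1 rose with CHZ868, against 26.4% and 26.8% of all genes, with a median of -0.94. Atf4 itself had 8.15, 8.21 and 8.19 log2 CPM in DMSO-treated and 6.80, 6.93 and 6.71 in CHZ868-treated cells. The groups did not overlap. Atf4 differed by -1.37 (SE 0.0662, limma-trend with Benjamini-Hochberg adjusted p = 3.46e-10). Trib3, a pseudokinase induced by ATF4, fell by 2.67, and Slc7a11, the cystine transporter, by 2.04. Psph, which makes serine from phosphoserine, was the 1 that rose, by 0.49. With ruxolitinib 19 of the 24 were lower and 1 higher without overlap, with a median of -0.45. After CHZ868 washout 2 passed as lower, Cebpb at -1.42 and Eif4ebp1 at -0.42, both named after their values were seen, where 2.07% of all genes passed as lower. Cebpb did not pass in 4 of 15 alternatives and Eif4ebp1 in 5. Neither passed without the mean-variance trend, without CHZ868-wash replicate 1 or 3, or without DMSO-wash replicate 1, and Eif4ebp1 did not pass without CHZ868-wash replicate 2. In ruxo-wash cells 0 of 24 passed by limma-trend. In the other 4 lists 0 genes passed in either washout by limma-trend. Myc, a transcription factor of growth genes, fell by 0.27 with CHZ868. It had 8.54, 8.65 and 8.68 log2 CPM in DMSO-treated cells. In ruxolitinib-treated cells Myc had 7.24, 8.29 and 7.50 log2 CPM before centring, with replicate 2 apart. Each of these libraries lay below the DMSO-treated ones, which were normalized separately, and the difference was not tested.

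The 37 genes lie on many chromosomes of the GRCm38 assembly. Wars1 is on the minus strand at chr12:108860030-108894174 and Cars1 on the minus strand at chr7:143557230-143600090. Yars1 is on the plus strand at chr4:129189760-129219607 and Aars1 on the plus strand at chr8:111033144-111057664. Hars1 and Hars2 lie head to head and share 195 exon bases on opposite strands. In all, 14 synthetase genes share exon bases with another gene and 7 have a stretch of at least 200 bases at 90% identity or more in another transcript. Aars1 shares 1326 exon bases on the same strand with Exosc6, and Iars1 shares 1656 bases at 96.0% with the pseudogene Gm4849. Whether reads from such stretches were counted for these genes was not tested.

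Promoters of 27 of the 37 genes, from 250 bases before to 50 after the gene start, were in the RefSeq table for GRCm38.p6, whose starts can differ from the GENCODE starts of the positions above. Cars1, Hars1, Lars1, Nars1, Rars1, Vars1, Wars1, Hars2 and Pars2 were among those not listed. The promoters were searched on both strands for TGATGNAA, the core of the element that C/EBP and ATF proteins bind. It was in 5 of the 27, which is 18.5%, and in the promoters of 4.51% of all 27025 genes. The 5 genes, Aars1, Gars1, Iars1, Tars1 and Yars1, are cytosolic or shared, and each fell with CHZ868, as did 16 of the 27. A link between the motif and the falls was not tested. The matches of Yars1, Gars1, Iars1 and Tars1 are shown with the bases around them, 5′ to 3′ on the strand of the gene, with the match in capitals; the Yars1 match is on this strand and the other 3 are on the opposite strand.
Yars1 (chr4:129189896-129189922, plus strand): cgagctcagcTGATGCAAcccgacggg
Gars1 (chr6:55037961-55037988, plus strand): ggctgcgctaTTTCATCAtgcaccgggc
Iars1 (chr13:49682127-49682149, plus strand): actgtcagtaTTGCATCAcctcc
Tars1 (chr15:11399656-11399683, minus strand): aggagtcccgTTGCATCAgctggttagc

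The E-box CACGTG, bound by MYC and related factors, was in 5 of the 27 promoters, 18.5%, and in those of 8.09% of all genes. These were Aars1, Ears2, Farsb, Iars1 and Tars1, so Aars1, Iars1 and Tars1 hold both motifs. The STAT motif TTCNNNGAA was in 3 of the 27, 11.1%, and in those of 9.55% of all genes, and the 3 were Aars1, Kars1 and Nars2. In Kars1 it begins 9 bases before the start. A match describes letters and not binding. The Kars1 match is shown with capitals for the motif, which reads the same on both strands.
Kars1 (chr8:112011345-112011373, minus strand): cccgccctctTTCCCGGAAgaggcaggac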

How the data were processed

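The 4 tables deposited by the authors hold log2 CPM, which the authors had TMM-normalized and filtered for low expression and to which a small constant was added. The paper names kallisto and GRCm38, whereas the submitters' processing notes name STAR 2.7.3a, edgeR 4.0.16 and GRCm39. The libraries were strand-specific, and whether counting used the strand is not stated. Within a table, groups were compared by limma-trend (limma 3.58.1, R 4.3.3) on all genes, with Benjamini-Hochberg adjustment and a threshold of 0.05. Differences between comparisons were fitted in the same way. Whole reads were recovered from 3 tables for depth and voom. Alternatives changed the trend, scaling, filter, constant, threshold or weights, or left out 1 library.

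The synthetase genes and the lists were chosen with earlier results of these data known. Values in every library are given for the 4 largest falls and up to 3 largest rises with CHZ868, for Wars1, Gars1, Kars1 and Qars1, and for genes past the threshold in a washout, or else its 2 largest differences. From each list the 2 largest falls and rises with CHZ868 are named, with Aimp1, Aimp2, Eef1e1, Atf4 and Myc. Other genes with values in every library were chosen after the values were seen. Near copies were searched with blastn 2.17.0 in GENCODE transcripts.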

Additional observations from a re-analysis of the deposited data

Results flagged for a closer look

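The effect of CHZ868 at 6 h differed from its effect after washout for 21 synthetase genes by a limma-trend test of the difference itself (Benjamini-Hochberg adjusted p under 0.05 over 11175 genes). Of the 37, 18 were lower and 3 higher, against 23.8% and 23.2% of all genes. Among the cytosolic enzymes outside the multi-synthetase complex the log2 differences were -1.48 for Wars1, -1.38 for Yars1, -1.28 for Cars1, -1.0003 for Vars1, -0.87 for Aars1, -0.83 for Gars1, -0.81 for Sars1, -0.36 for Tars1 and -0.27 for Nars1. Within the complex they were -1.16 for Lars1, -1.11 for Mars1 and -0.81 for Eprs1. Among the mitochondrial enzymes they were -1.39 for Mars2, -1.05 for Nars2, -0.99 for Tars2, -0.99 for Yars2, -0.68 for Cars2 and -0.51 for Wars2. Of 20 alternatives, Wars2 did not pass in 13 and Nars1 did not pass in 12, among them 10 and 9 of the 12 fits with 1 library left out. The 6 h effect was the higher one for Fars2, at 0.80, for Farsa, at 0.43, and for Hars1, at 0.40. Presence of the inhibitor, washing, exposure time and experiment differ between the effects and cannot be told apart.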

How the results depend on the processing

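With CHZ868 at 6 h, 23 of 23 called genes kept their direction and their call with median centring, the other filters and constants and voom, 21 without the trend (Kars1 and Qars1 lost), 22 with quantile normalization (Qars1 lost) and 21 to 23 with 1 library left out (Kars1, Qars1 or Aars2 lost). The genes that rose numbered 2, from 1 to 5 with 1 library left out, and 0 with an added log2 fold threshold of 0.58. Among the genes that fell, Iars1, Kars1, Nars1, Tars1 and Aars2 fell by less than that threshold. The median of -0.45 was -0.50 with quantile normalization, -0.37 with log2(CPM + 5) and from -0.47 to -0.38 with 1 library left out. Genes that had not passed changed sign: Farsb (-0.0526 with quantile normalization, from -0.0370 to 0.109 with 1 library left out), Rars1 (-0.0914, from -0.0360 to 0.0626), Lars2 (from -0.0177 to 0.528) and Pars2 (from -0.13 to 0.10).

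The ranges in this paragraph are over the fits with 1 library left out. With ruxolitinib, 3 to 5 genes were higher. In ruxo-wash cells Lars2 ranged from -0.0428 to 0.823. In CHZ868-wash cells 0 to 4 genes passed as lower and 0 to 1 as higher, and the median of -0.0089 ranged from -0.0584 to -0.01, while quantile normalization gave 0.0093. The median of the 6 h effect minus the washout effect ranged from -0.41 to -0.30, and Nars1 and Wars2 lost their calls in 12 and 13 of 20 alternatives. For the difference between the washouts 0 to 1 genes were higher, and the median ranged from 0.0208 to 0.106. The cause was not tested.

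With the replicate block, 22 genes fell, Hars2 added, and 2 rose with CHZ868 at 6 h, 0 passed in the washouts or their difference, and 16 were lower and 3 higher for the 6 h effect minus the washout effect. Over all genes it gave 0 lower in ruxo-wash cells in place of 3, and 3 lower and 3 higher for the difference between the washouts in place of 93 and 98. Libraries of 1 number did not resemble each other across groups (correlations across genes from -0.054 to 0.051).

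Over all genes, counts moved most in the washouts. In ruxo-wash cells 3 passed as lower and 0 as higher, 7 and 2 without the trend, and 0 to 1 lower with 1 library left out. In CHZ868-wash cells 235 passed as lower and 222 as higher, 0 and 0 without the trend, and 0 to 704 and 0 to 759 with 1 library left out. For the difference between the washouts 93 and 98 passed, 6 and 8 without the trend, and 1 to 297 and 4 to 331 with 1 library left out. With 3 libraries a group, differences within the spread between libraries were not detectable. The depth of the ruxo-wash experiment is unknown.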
